A study of Mus musculus with 8 samples.

Results

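Msra encodes methionine sulfoxide reductase A, and cryptic transcription starts within the gene in mouse liver are described here from 16 deposited intervals of 1627 in all. Both totals count an interval in each deposited list that holds it, and 3 of the 16 repeat the place of another. A cryptic start is a capped 5′ end of nascent RNA that lies inside a gene and away from its annotated starts. The intervals were chosen by position, as those of the 4 deposited lists whose centre falls in the annotated Msra gene, whatever the strand. The lists themselves were selected on the ratio between the ages, since their larger versions keep intervals whose deposited fold between the ages is 10 or more. Msra held 12 of the 976 intervals of the larger old list, 1 of 425 of the larger young list, 3 of 216 of the stricter old list and 0 of 10 of the stricter young list. The direction of each interval is therefore fixed by its list, and the folds and read counts below are descriptions without a test.

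The study profiled frozen liver by PRO-cap, in which engaged polymerases run on in vitro and the capped 5′ ends of the nascent RNA are sequenced. Its 4 old samples came from C57/BL6J mice aged 22 to 25 months and its 4 young samples from mice aged 2 to 4 months, each with 2 females and 2 males, all fed standard chow without restriction and with no further treatment named in the labels. Young animals were bought from Jackson Laboratories and old animals came from the colony of the National Institute on Aging, so the age and the source of the mice cannot be told apart. Each larger list holds 1 pooled value per interval and the stricter lists hold none, so no spread between animals can be given. The names of the larger lists carry the marks OF and YF, which the labels use for files of female samples, while the labels of all samples of an age name the same list, so it is not clear whether male samples entered the values.

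MsrA reduces methionine S-sulfoxide, in free methionine and in proteins, back to methionine. Oxidation of methionine by reactive oxygen species is thereby made reversible, and thioredoxin, kept reduced by thioredoxin reductase, supplies the electrons. The enzyme works in the cytosol and, where translation begins with a targeting sequence, in mitochondria, and liver is among the tissues rich in it. The R form of methionine sulfoxide is handled by the MsrB enzymes, encoded by Msrb1, Msrb2 and Msrb3.

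Msra (ENSMUSG00000054733.9) lies on the minus strand of chromosome 14, from 64122625 to 64455903 in mm10, and spans 333279 bp. GENCODE M21 gives it 5 transcripts, 3 of them coding. Msra-201 has 11 exons, 6 of them with coding bases, and encodes 233 codons from a start at 64455903. Msra-205 starts at 64416948 and encodes 191 codons, and Msra-204 starts at 64417279 and encodes 169. The coding transcripts differ in where they start and in their first coding bases, and share their coding exons after the one at 64313687 to 64313755. The last exon ends at 64122625, 64122626 and 64122911 in Msra-201, Msra-205 and Msra-204, with the same coding part. Every annotated start and every coding difference between the isoforms lies upstream of all 13 larger-list intervals.

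All 12 old intervals and the young interval lay in 1 intron, the last of the gene, between exon 10 and exon 11 of Msra-201. This intron runs from 64123354 to 64210427, is 87074 bp long and takes up 26.1% of the gene. It is the last intron of Msra-204 and of Msra-205 as well, so the placement does not depend on the isoform. None of the intervals touched an exon with any base. Of all pairs of a larger-old interval and its gene, 92.6% lay beyond the middle of the gene, which is a property of the lists, and of the part of Msra beyond its middle the last intron makes up 52.3%. Intron 8, with 51130 bp beyond the middle, and intron 9, with 23294 bp, held 0 intervals of any list, and so did the largest intron, intron 6, with 126954 bp, which ends before the middle.

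**Figure D1:**
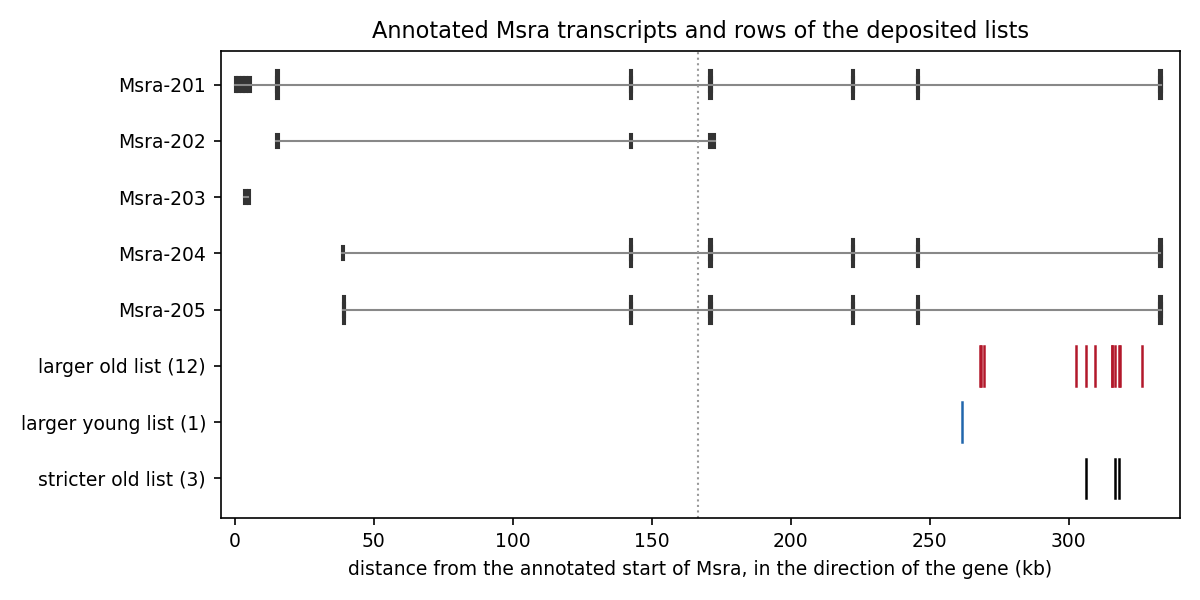
Map of the 5 annotated Msra transcripts (tall boxes coding, low boxes non-coding exons, widened to be visible) and the intervals of 3 lists (vertical marks), against distance from the annotated start of the gene in kb, with a dotted line at the middle of the gene. All 12 larger-old, 1 larger-young and 3 stricter-old marks fall between the last 2 exons.

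Exon 11 was thus the only annotated Msra exon between any of the intervals and the 3′ end of the gene. Its coding part is 162 bases long, which is 23.2% of the 699 coding bases of Msra-201, 28.3% of those of Msra-205 and 32.0% of those of Msra-204. The coding bases of exons 10 and 11, which flank the intron, are printed below from the GENCODE M21 transcript Msra-201, on the strand of the gene, with in-frame cysteine codons in capitals. They are shown because they separate what lies upstream of the intervals from what lies downstream.
Exon 10 (chr14:64210428-64210534, minus strand, codons 144 to 179): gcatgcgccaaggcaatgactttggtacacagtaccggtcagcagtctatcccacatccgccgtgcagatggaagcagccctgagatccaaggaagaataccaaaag
Exon 11, coding part (chr14:64123192-64123353, minus strand, codons 180 to 233): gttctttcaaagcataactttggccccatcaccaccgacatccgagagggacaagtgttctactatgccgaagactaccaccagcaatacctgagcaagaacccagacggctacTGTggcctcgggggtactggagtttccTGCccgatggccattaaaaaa
Msra-201 has 4 cysteine codons, at positions 72, 107, 218 and 227 counted from the start codon. Cysteine 72 is known as the catalytic residue, which is oxidised as the substrate is reduced, and cysteines 218 and 227 as the residues that pass the oxidation on to thioredoxin. The codons of cysteines 72 and 107 lie upstream of the intervals and those of cysteines 218 and 227 in exon 11, downstream of them. The lists do not give the strand of an interval, and whether any RNA starting there runs into exon 11 was not tested.

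Along the gene the young interval came first, followed by 2 groups of old intervals. The young interval, from 64194075 to 64194224, was centred 16279 bp downstream of exon 10 and 70796 bp upstream of exon 11. The first group of old intervals lay from 64186092 to 64187696, with 3 intervals at 2 loci within 1605 bp, where a locus joins intervals at most 500 bp apart. After a stretch of 32793 bp with no interval, the second group held 9 intervals at 7 loci within 23746 bp, from 64129553 to 64153298. Its last interval was centred 6274 bp upstream of exon 11. The old intervals together covered a span of 58144 bp, 66.8% of the intron, and 0 of them lay upstream of the young interval. Relative to the gene, with 0 at its start and 1 at its end, the old intervals ran from 0.805 to 0.979 with a median of 0.938, and the young interval stood at 0.785. Over all pairs of a larger-old interval and its protein-coding gene the median was 0.758.

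The deposited folds could be solved for the whole reads on each side, which gives the depth behind every interval. Ratios below are scaled by the relative depth of the sides, with exact 95% Clopper-Pearson intervals that cover counting error only. Where the young side had 0 reads, the ratio is taken against a floor of 3 reads for that interval and is written as at least that value. Such a value leaves out counting error on the old side. It is therefore not a 95% bound and is not comparable with the lower ends of the intervals. In whole tissue, fewer cells of a type and less RNA per cell cannot be told apart.

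In the first group the interval from 64187547 to 64187696 rested on 170 old-side and 9 young-side reads. The interval from 64187475 to 64187624 overlaps it by 78 bp, can share reads with it, and had 267 against 9. The interval from 64186092 to 64186241 had 397 against 8. All 3 intervals of this group had some young-side reads, and the ratios of old over young were 19.8 (10.2 to 44.1), 31.1 (16.2 to 68.8) and 52.1 (26.2 to 121.5).

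The second group held both the deepest and the shallowest old intervals of the gene. Starting upstream, the interval from 64153149 to 64153298 rested on 71 old-side and 0 young-side reads and was at least 24.8-fold higher in old liver. The interval from 64149390 to 64149539 had 670 against 31, the most reads of either side among the old intervals, and a ratio of 22.7 (15.8 to 33.7). The interval from 64146208 to 64146357 had 162 against 12, a ratio of 14.2 (7.89 to 28.0). This was the only old interval in the gene whose lower interval end, or ratio against the floor, fell under 10. Its deposited fold of 14.04 was the lowest of the 12, against a lowest fold of 10.0 in the whole list. Intervals below a fold of 10 are not in the lists and were not analysed here.

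Of the 6 intervals further downstream, 4 had 0 reads on the young side, 1 had 1 and 1 had 8. The interval from 64140223 to 64140372 had 39 old-side reads against 0 and was at least 13.6-fold higher in old liver, and the interval from 64140127 to 64140276, which overlaps it by 54 bp, had 237 against 8, a ratio of 31.1 (15.5 to 72.9). The interval from 64139116 to 64139265 had 648 against 0 and was at least 226.7-fold higher, taken against the floor. It carried the highest deposited fold of the gene, 5544, which ranked 11 in the larger old list. The interval from 64137626 to 64137775 had 260 against 1, and the interval of its ratio, from 48.5 to 10820, is wide because of the 1 young-side read. The last intervals, from 64137426 to 64137575 and from 64129553 to 64129702, had 140 against 0 and 196 against 0, at least 49.0-fold and 68.6-fold higher.

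The young interval went the other way, as its list requires. It rested on 269 young-side and 10 old-side reads, a ratio of young over old of 25.6 (13.7 to 54.1). Its centre was 6528 bp from the nearest old interval, the one with 170 against 9 reads. Each age thus gave reads at both places, and their proportions were opposite within this short stretch of the intron.

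**Figure D2:**
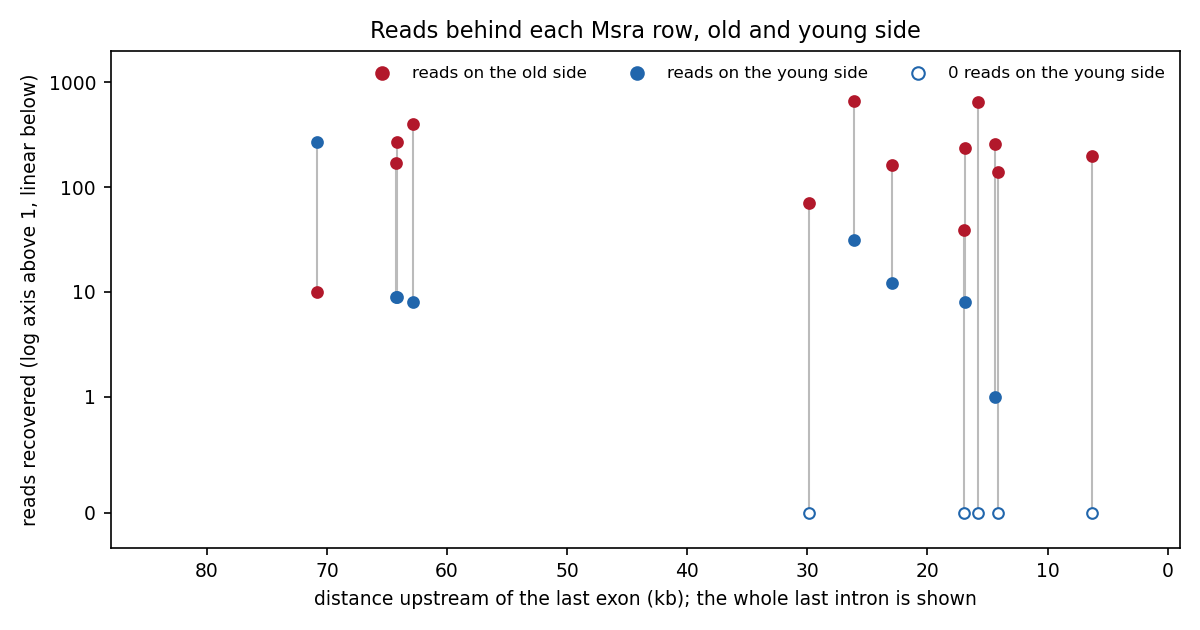
Reads on the old side (red) and on the young side (blue, open where 0) behind each of the 13 larger-list Msra intervals, on an axis that is logarithmic above 1, against distance upstream of the last exon in kb. The young interval stands leftmost with 269 young against 10 old reads, and the 5 intervals with 0 young-side reads all lie within 29.9 kb of the last exon.

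Of the 12 old intervals, 5 had 0 reads on the young side and 7 had from 1 to 31. All 5 lay in the second group and 0 in the first. The share of 41.7% stood beside 36.0% in the whole larger old list. Old-side reads ran from 39 to 670 with a median of 216.5, beside a median of 159.5 over the list, and the 3 deepest intervals gave 52.7% of their sum. The interval with 670 reads was deeper than 94.0% of the list, the one with 39 deeper than 0.512%. With 1 interval per locus, that with most old-side reads, the 9 loci summed to 2908 old-side and 69 young-side reads, a ratio of 44.2 (34.8 to 57.0). The lists were selected on this ratio, so it describes how far the selected intervals differ and does not estimate the change of the gene's transcription.

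**Figure D3:**
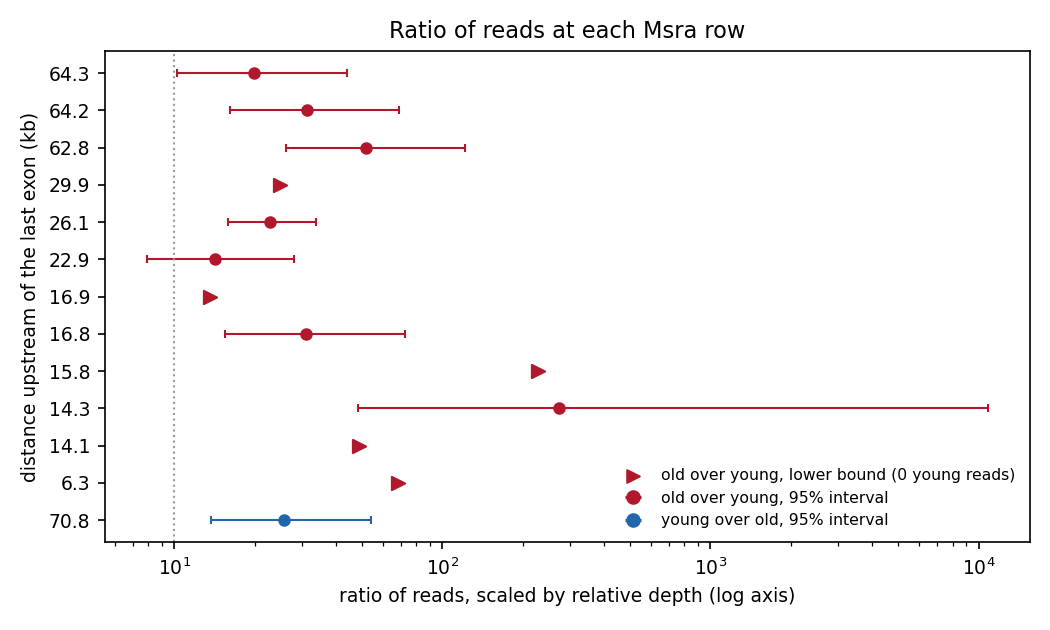
Ratio of reads, scaled by relative depth, at each Msra interval (log axis), named by its distance upstream of the last exon in kb: circles with 95% counting intervals, triangles for lower bounds where the young side had 0 reads, and a dotted line at 10. Only the old interval at 22.9 kb reaches below 10; the blue circle is the young interval, with young over old.

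The stricter old list held 3 Msra intervals, each with the same coordinates as an interval of the larger list. They were those with 260, 648 and 670 old-side reads, and all belonged to the second group. The interval with 397 reads and a ratio of 52.1 and the interval with 267 reads were not among them, so neither reads nor ratio alone orders the stricter intervals within Msra. Over the list, 182 of the larger old intervals (18.6%) recurred in the stricter list with a median of 298 old-side reads, beside 140 for the others, and 153 of the others had as many reads as the shallowest stricter Msra interval or more. The stricter old list holds 216 intervals, more than the 182 shared, so it is not simply a part of the larger list. The names of the stricter lists mention 10 RPM, 10FC and NoInt, and no source used here says how they were made.

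Annotated starts were far from the intervals. The nearest annotated start was the same for all 13, at 64116314, and belongs to 9630015K15Rik, a non-coding gene annotated antisense to Msra. It lay from 13313 to 71307 bp from the centres of the old intervals, with a median of 26976 bp, beside a median of 13119 bp over the larger old list. This antisense gene runs to 64127605, overlaps the 3′ end of Msra by 4981 bp and stops 1947 bp short of the closest old interval. No annotated gene other than Msra held the centre of an Msra interval. The nearest start of an Msra transcript, that of Msra-205, was 222799 bp from the young interval and 229327 bp or more from the old ones.

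Around Msra the larger old list held no further interval nearby. Within 1000000 bp on either side lie 24 other protein-coding genes, and 0 of them held an interval of the larger old list. Over all protein-coding genes 2.77% held one, so a count of 0 among 24 is near the background. Outside Msra the closest old intervals on chromosome 14 were 1744024 bp above and 3133855 bp below the gene, of 47 on the chromosome in all. These neighbours are all shorter than Msra, with a median length of 37486 bp and a longest of 214307 bp (Xkr6). Length bears on how many intervals a gene can hold. They include Prss55, Prss51 and Prss52, which encode serine proteases, Gata4 and Sox7, which encode transcription factors, and Pinx1, which encodes a telomerase inhibitor. Only Hmbox1, a homeobox gene, held an interval, of the larger young list, with 221 young-side against 3 old-side reads and a ratio of 70.2 (23.7 to 342.9). Over all protein-coding genes 1.38% held an interval of that list, so 1 among 24 cannot be told from the background.

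Among all 21951 protein-coding genes, 2.77% held 1 or more intervals of the larger old list and 1.38% of the larger young list. Of the larger list Msra held the most old intervals, 12 against at most 9 in any other gene, and the most loci, 9. The stricter old list gives another order, with 7 intervals in Nfatc1 and 4 in Stk3 against 3 in Msra. Msra is a long gene, and 479 genes are as long or longer, Msra included. Of these 13.4% held an old interval, 15 held 3 or more, and the others held at most 9. Per length Msra was less extreme, with 3.60 old intervals per 100 kb. Among the 86 genes with 3 or more old intervals it ranked 29 by this measure, and the median of the other genes was 2.66.

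**Figure D4:**
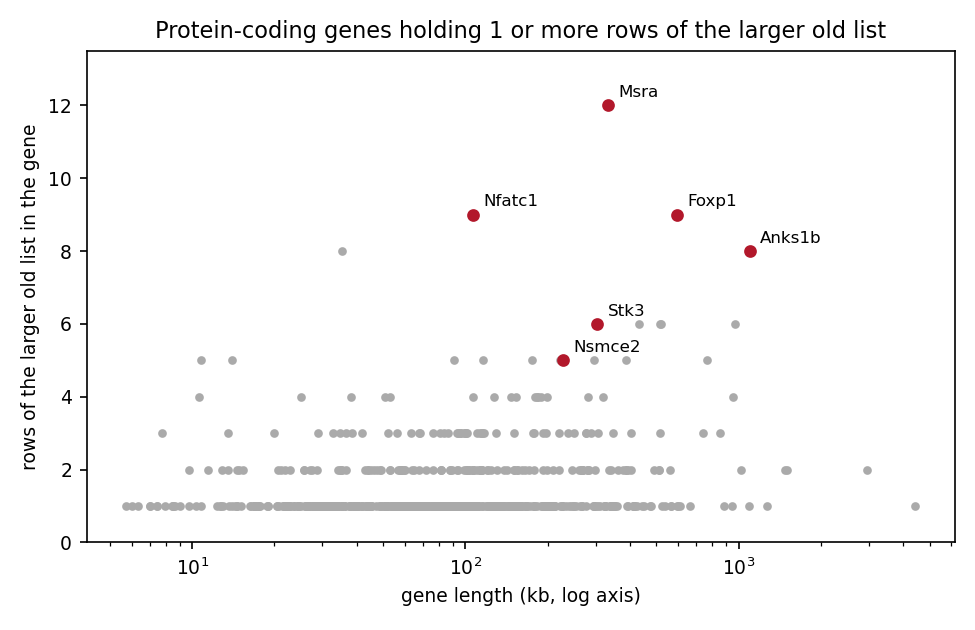
Number of larger-old intervals in each protein-coding gene that holds 1 or more, against gene length (kb, log axis), with Msra and the 5 genes closest to it in number of loci in red. Msra stands highest with 12 intervals.

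The gathering of intervals in a single intron was common, but not at this number. Of the 86 genes with 3 or more old intervals, 35 (40.7%) had all of them in 1 intron of the transcript with the longest coding sequence. When neighbouring intervals were joined first, 15 such genes had 3 or more loci. The number of all genes with 3 or more loci is not given here, so this count is not a share of the 86. Msra intron 10 held 12 intervals, and the next highest number in 1 intron was 6, in Pde4b, a cyclic AMP phosphodiesterase gene. Last introns held 17.2% of all pairs of a larger-old interval and its gene, and 10.6% of larger-young pairs. The pairs counted lie inside the transcript with the longest coding sequence, exons included. Within the last intron of Msra the density was 13.8 old intervals per 100 kb. This intron was picked because it held all 12, and densities of other introns were not computed. Hvcn1 held 5 of its 8 old intervals in 1 intron, although the whole gene spans 35494 bp.

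The 5 protein-coding genes closest to Msra in number of old loci, with ties broken by gene length, were Foxp1, Nfatc1, Anks1b, Stk3 and Nsmce2. Foxp1, a transcription factor gene, had 7 loci, and at most 4 of its 9 intervals shared an intron. Nfatc1, a calcium-responsive transcription factor gene, had 6 loci, with 5 of 9 intervals in its last intron and a median of 517 old-side reads, above the 216.5 of Msra. Anks1b had 6 loci and at most 2 of 8 intervals in 1 intron, spread over 304954 bp. Stk3, a kinase gene of the Hippo pathway, had 5 loci, with 3 of 6 intervals in its last intron. Nsmce2, a SUMO ligase gene of DNA repair, had 5 loci and at most 3 of 5 intervals in 1 intron. In the stricter old list Nfatc1 held 7 and Stk3 4, above the 3 of Msra. Foxp1 and Anks1b held 2 each and Nsmce2 1. None of these 5 genes had all of its old intervals in 1 intron, but others with 5 or 6 intervals did, namely Pde4b with 6 of 6 and Bcl2 and Rarb with 5 of 5 each.

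Genes of methionine repair, of its electron supply and of related redox systems were counted beside all protein-coding genes. Msrb1, Msrb2 and Msrb3 held 0 intervals of any list, although Msrb3 spans 118006 bp. Of the 14 genes of the thioredoxin system, 1 held old intervals, 7.14% beside 2.77% of all protein-coding genes, a share that rests on 1 gene. This was Txnrd1, the cytosolic thioredoxin reductase, with 2 overlapping intervals in intron 14, its last intron, on chromosome 10. The interval from 82891016 to 82891165 had 665 old-side against 31 young-side reads, a ratio of 22.5 (15.7 to 33.4), and the interval from 82891132 to 82891281 had 128 against 0, at least 44.8-fold higher in old liver. The lists of 14 glutathione genes, 8 other antioxidant genes and 14 methionine cycle genes held 0 intervals of either age. In all, 2 of 54 genes of these 5 lists held an old interval (3.70%), beside 2.77% of all protein-coding genes. Without Msra it was 1 of 53 (1.89%), and both shares are close to the background. The 53 genes have a median length of 15890 bp, against 333279 bp for Msra, and length was not matched. The young lists had Msra alone among the 54 (1.85%), beside 1.38% of all protein-coding genes for the larger young list.

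Peak lists hold no expression levels, and an interval inside a marker gene does not show that the gene is expressed. The tissue could therefore not be checked, and marker genes are given only for the intervals they hold. Of 42 marker genes, 3 held an interval. Ttr and Hnf4a, of 10 hepatocyte genes, held young intervals. Those of Ttr had 373 young-side against 15 old-side reads and 55 against 1, and that of Hnf4a had 169 against 13. Cdh5, of 7 liver endothelial genes, held 2 old intervals with 255 and 162 old-side reads against 0. By gene this is 1 of 42 (2.38%) for the old list, beside 2.77% of all protein-coding genes, and 2 of 42 (4.76%) for the young list, beside 1.38%. The markers of Kupffer cells (8), lymphocytes (10) and stellate cells (7) held 0 intervals. Which cells gave the Msra reads, and the part of cell composition in them, was not tested.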

How the data were processed

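Values came from 4 deposited lists of 150 bp intervals in mm10. In the larger lists the authors give a fold per interval, a ratio of 1 age over the other. The stricter lists carry a deposited score of 0 in every row, so only their positions were used. The submitters' processing notes list BWA 0.7.10, bedtools 2.27.1-65, cutadapt 2.10, HOMER and SAMtools 1.1 without roles. No source used here says how intervals were called, which libraries were pooled or how the sides were scaled.

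Every fold of the 976 old and 425 young intervals equalled whole reads times a constant plus 1, over the same for the other side, with 1 solution each (within 1e-07 reads, up to 1000 other-side reads tried). The value of 1 read was 8.55 on the old and 8.15 on the young side; if both were scaled alike, old depth was 0.953 of young. Total depth is unknown. The step was tested on simulated data at other depths.

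Intervals were placed by their centre in GENCODE M21 (GRCm38, the assembly of mm10) with Python 3.11.15, numpy 2.4.6 and scipy 1.17.1. Introns follow the transcript with the longest coding sequence. Loci joined intervals at most 500 bp apart. Genes named are Msra, genes of 10 fixed lists that hold an interval, and the neighbours within 1000000 bp (a selection is printed). The 5 genes closest in number of loci are named too. Pde4b, Bcl2, Rarb and Hvcn1 were named after their values were seen. The gene and the lists were chosen with earlier results of these data known. With 1 pooled list per age, age was not tested. GC content and motifs of the intervals were not analysed here.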

Additional observations from a re-analysis of the deposited data

How the results depend on the processing

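No paired analysis was possible because each age has 1 pooled list and no replicate columns, and for the same reason no replicate could be left out. Keeping intervals at or above the median fold of the list left 7 of the 12 old Msra intervals, by construction. Joining within 5000 bp gave 4 loci in place of 9, since larger gaps are bridged, while joining only overlapping intervals gave 10 and joining within 1000 bp gave 8. Counting fewer starts moved the median distance from the nearest start, from 26976 bp to 39004 bp with protein-coding transcripts and to 273658 bp with Msra transcripts. By intervals per 100 kb Msra ranked 29 rather than 1. Joining intervals first, an alternative chosen after seeing the data, left 15 rather than 35 genes with all of 3 or more in 1 intron, by construction. The count of 12 old intervals in the gene, its last intron and beyond its middle held under the other alternatives run, with 1 exception. The last-intron alternatives, by each coding transcript, were also chosen after seeing the data. The exception was that 11 old intervals had a lower interval end, or a ratio against the floor, of at least 10. The count of 3 stricter intervals shared with the larger list was the same. An alternative window for GC content was not run. Depth limits the intervals with 0 to 12 young-side reads most.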

Other observations

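Of the 21951 protein-coding genes, 608 (2.77%) held larger-old intervals and 304 (1.38%) larger-young ones. Genes that held intervals of both larger lists numbered 32, Msra among them. Long genes can hold more intervals of either list, and whether 32 exceeds what length gives was not tested. In 22 of the 32 an old and a young interval shared an intron of the transcript with the longest coding sequence, as in Msra. The shortest distance between old and young centres within such a gene had a median of 17206 bp, and 10 of the 32 genes had a shorter distance than the 6528 bp of Msra.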
